A study of Mus musculus with 18 samples.

Results

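In a mouse model of myelodysplastic syndrome, 32903 genomic regions lost at least 0.2 of their DNA methylation in NHD13 marrow progenitors, as a fraction, without touching any region called between NHD13 and Setd2-deleted KO progenitors. They were taken from the authors' table of 58684 regions that differ between WT and NHD13 by 3 criteria: a place on chromosomes 1 to 19, a mean methylation at least 0.2 lower in NHD13 than in WT, and no overlap of 1 base or more with the table of NHD13-to-KO regions. Of 43388 regions that met the first 2 criteria, the other 10485 overlapped an NHD13-to-KO region. The 32903 are called unmatched regions here, and the 10485 matched regions. A further 8257 regions of the same chromosomes gained at least 0.2 in NHD13.

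The AML cells were C-Kit+ cells sorted from spleens of NHD13/Setd2 KO mice at the leukemia stage. The KO cells were hematopoietic stem and progenitor cells (HSPCs) from bone marrow of NHD13/Setd2 KO mice, in which Mx1-Cre, an inducible recombinase used for blood cells, had deleted Setd2. The NHD13 cells were HSPCs from bone marrow of mice with the Nup98-HoxD13 transgene and floxed but undeleted Setd2, and the WT cells were HSPCs of C57BL/6 mice, which carry neither. The study profiled DNA methylation by whole-genome bisulfite sequencing in 1 library of each of these 4 groups, RNA in 3 libraries of each, and H3K36me3 by ChIP-seq in C-Kit+ spleen cells of 1 NHD13-AML and 1 NHD13/Setd2 KO-AML sample. The sources used here give neither ages nor whether an RNA library came from 1 animal or a pool.

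Methylation of cytosine in CpG pairs is copied at replication by Dnmt1 with Uhrf1, placed anew by Dnmt3a and Dnmt3b, and removed by the Tet enzymes. In blood cells it is lost at enhancers and promoters of lineage genes as progenitors mature, while most of the genome stays methylated. Setd2 trimethylates histone H3 at K36 over transcribed gene bodies, and Dnmt3a and Dnmt3b can bind that mark. Nup98-HoxD13 is a fusion oncoprotein that keeps Hox genes active in progenitors and gives mice a myelodysplastic syndrome.

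The following 7 promoters, each 250 bases before to 50 bases after a RefSeq start (GRCm38.p6, printed 5′ to 3′ on the gene's strand), hold or touch an unmatched region and belong to genes taken up below. Capitals mark the CpG pairs that lie inside the unmatched region, so they show how few or many sites stand behind a regional mean.
S100a9, chr3:90695672-90695971, minus strand: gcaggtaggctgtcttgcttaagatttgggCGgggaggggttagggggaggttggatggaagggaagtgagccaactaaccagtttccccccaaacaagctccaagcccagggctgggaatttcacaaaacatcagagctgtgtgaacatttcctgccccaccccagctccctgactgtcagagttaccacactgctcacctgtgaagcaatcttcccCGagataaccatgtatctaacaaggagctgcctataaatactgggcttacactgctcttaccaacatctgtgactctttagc
Ctsg, chr14:56102525-56102824, minus strand: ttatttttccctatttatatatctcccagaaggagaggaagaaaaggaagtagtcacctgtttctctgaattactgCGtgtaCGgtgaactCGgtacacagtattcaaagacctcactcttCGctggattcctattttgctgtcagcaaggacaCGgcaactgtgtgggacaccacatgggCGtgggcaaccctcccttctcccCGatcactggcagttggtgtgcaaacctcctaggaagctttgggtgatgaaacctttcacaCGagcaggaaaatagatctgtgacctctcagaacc
Mst1r, chr9:107914753-107915052, plus strand: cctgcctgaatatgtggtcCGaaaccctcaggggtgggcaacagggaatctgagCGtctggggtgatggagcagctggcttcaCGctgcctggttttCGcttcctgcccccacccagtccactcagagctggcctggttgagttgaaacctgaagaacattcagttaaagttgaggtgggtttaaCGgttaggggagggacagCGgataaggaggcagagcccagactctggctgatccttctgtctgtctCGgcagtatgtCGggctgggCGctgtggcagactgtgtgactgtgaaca
Rag2, chr2:101624462-101624761, plus strand: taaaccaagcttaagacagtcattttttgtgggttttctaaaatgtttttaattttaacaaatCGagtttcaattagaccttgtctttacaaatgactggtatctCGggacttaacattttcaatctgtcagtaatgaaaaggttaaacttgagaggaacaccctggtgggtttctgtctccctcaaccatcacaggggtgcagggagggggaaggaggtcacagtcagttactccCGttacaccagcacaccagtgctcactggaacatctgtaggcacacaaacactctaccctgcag
Gp1bb, chr16:18622354-18622653, minus strand: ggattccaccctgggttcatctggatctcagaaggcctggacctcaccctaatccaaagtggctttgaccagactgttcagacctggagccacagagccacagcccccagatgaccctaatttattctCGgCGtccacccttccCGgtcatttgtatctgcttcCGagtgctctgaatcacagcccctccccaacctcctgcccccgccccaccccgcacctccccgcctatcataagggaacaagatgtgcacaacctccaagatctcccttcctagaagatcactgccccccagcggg
Tsc22d1, chr14:76414711-76415010, plus strand: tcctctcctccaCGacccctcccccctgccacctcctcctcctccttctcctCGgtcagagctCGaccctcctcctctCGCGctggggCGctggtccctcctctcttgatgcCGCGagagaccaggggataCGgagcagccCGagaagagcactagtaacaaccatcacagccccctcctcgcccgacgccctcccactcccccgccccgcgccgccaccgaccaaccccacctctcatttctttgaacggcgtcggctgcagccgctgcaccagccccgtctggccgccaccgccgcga
C1galt1, chr6:7844974-7845273, plus strand: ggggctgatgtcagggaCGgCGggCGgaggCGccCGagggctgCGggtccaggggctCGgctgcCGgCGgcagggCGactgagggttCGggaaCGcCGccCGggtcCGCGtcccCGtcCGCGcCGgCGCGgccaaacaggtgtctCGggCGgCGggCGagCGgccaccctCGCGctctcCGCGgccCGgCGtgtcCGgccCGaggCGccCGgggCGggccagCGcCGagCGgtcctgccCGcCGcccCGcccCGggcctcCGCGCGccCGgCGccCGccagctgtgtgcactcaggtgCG
The S100a9 window holds 2 CpG pairs, both inside a region with a methylation of 0.390 in NHD13 and 0.704 in WT. The region at Ctsg, the gene of the neutrophil granule protease cathepsin G, covers all 8 CpG pairs of its window and had 0.0797 in NHD13 and 0.435 in WT. At Mst1r, a receptor tyrosine kinase gene whose RefSeq window lies inside the span of the gene, 9 CpG pairs fell in a region with 0.530 in NHD13 and 0.846 in WT. The start of Rag2, a gene of the V(D)J recombinase, had 3 CpG pairs in a region with 0.139 in NHD13 and 0.506 in WT. Gp1bb, which encodes a platelet glycoprotein, had 4 of 8 CpG pairs in a region with 0.264 in NHD13 and 0.497 in WT. The CpG-dense windows of Tsc22d1, a gene of a leucine zipper protein, and C1galt1, a gene of an O-glycosylation enzyme, had 10 of 27 and 52 of 52 CpG pairs in regions with 0.135 and 0.130 in NHD13, against 0.436 and 0.428 in WT.

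The unmatched regions were short and, for the most part, dropped from high to intermediate methylation. Together they covered 8.78 Mb, with a median length of 211 bases (51 to 9817) and a median of 7 CpG sites as the authors count them, over both strands. Their median methylation was 0.542 in NHD13 and 0.844 in WT, and the median loss was 0.28. In WT, 19995 of them (60.8%) were methylated at 0.8 or more, and in NHD13 21001 (63.8%) lay between 0.4 and 0.7, while 2089 (6.35%) were under 0.2. A loss of at least 0.4 was seen in 2270 (6.90%), and 9769 (29.7%) had lost between 0.2 and 0.25. The regions were chosen by these levels, which are a description. Just inside the threshold, chr6:99028225-99028457 had 0.170 in NHD13 and 0.370 in WT, and just outside it, chr16:90735430-90735507 had 0.573 in NHD13 and 0.773 in WT. The 3183 regions that lost 0.2 to 0.22 stood beside 1840 that lost 0.18 to 0.2 and were not taken. Each library is 1 per group and the tables give no coverage, so the error of a single level is unknown.

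The matched regions were longer and richer in sites, with a median length of 302 bases and 12 CpG sites. Their median methylation was 0.502 in NHD13 and 0.835 in WT. The authors' summed statistic had a median of 27.6 in unmatched regions, against 52.7 in matched ones. By that statistic, 89.6% of the demethylated regions with a value up to 15 were unmatched (5065 of 5651), against 49.4% of those over 200 (651 of 1318), with falling shares at each step between. Thus the rule took mostly small, shallow regions and about an equal share of the strongest. CpG sites per 100 bases were close, at 2.05 in unmatched and 2.12 in matched regions. A further 702 unmatched regions (2.13%) had an NHD13-to-KO region within 500 bases.

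Absence from the NHD13-to-KO table does not show that the KO level equalled the NHD13 level, and where a KO level could be read it often did not. The table of KO-to-AML regions gives KO and AML levels, and 2226 unmatched regions (6.77%) overlapped such a region by at least 50% of both lengths. These regions are in that table because they differ between KO and AML, so they do not stand for the rest. Over them, the median methylation was 0.473 in AML, 0.627 in KO, 0.519 in NHD13 and 0.831 in WT. KO minus NHD13 had a median of 0.118, with the middle 50% from 0.0282 to 0.179. The KO level was within 0.1 of NHD13 in 39.2% of them, at least 0.1 above it in 56.4% and at least 0.2 above it in 17.97%. At the median, KO stood 0.3997 of the way from the NHD13 to the WT level. In the 2415 matched regions with such a KO level, the medians were 0.492 in AML, 0.801 in KO, 0.483 in NHD13 and 0.839 in WT, and 0.663% lay within 0.1. At the median, unmatched regions with a readable KO level thus stood partway to WT in KO, and matched ones near WT. The rule set matched regions apart by a difference in KO, and a readable level requires a KO-to-AML difference, so these medians are a description. The unmatched median pools both directions of the KO-to-AML difference, which are given apart below.

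**Figure D1:**
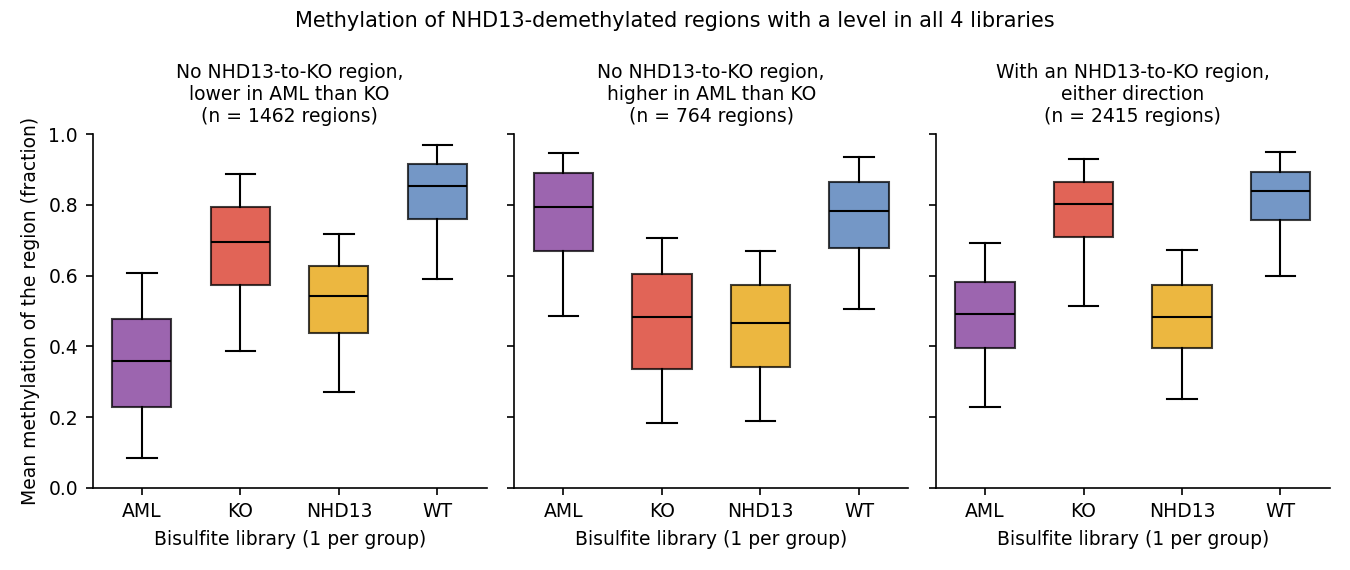
Mean methylation (fraction, vertical axis) in the AML, KO, NHD13 and WT bisulfite libraries over regions with a level in all 4. Boxes span the middle 50% with the median as a line, and whiskers run from the 5th to the 95th percentile of regions, not of replicates. In the 1462 unmatched regions lower in AML than in KO, the KO median is 0.694, and in the 764 that are higher in AML it is 0.483, next to 0.467 in NHD13.

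The 2226 regions were further divided by the direction of the KO-to-AML difference. That division uses the KO level, low where AML is higher and high where AML is lower, so the KO and AML levels that follow are a description. The 1462 that were lower in AML than in KO had medians of 0.358 in AML, 0.694 in KO, 0.541 in NHD13 and 0.854 in WT. The 764 that were higher in AML had medians of 0.792 in AML, 0.483 in KO, 0.467 in NHD13 and 0.782 in WT, and their KO minus NHD13 difference had a median of 0.0144, with 70.8% within 0.1. The WT and NHD13 levels, which the division did not use, were lower in these 764 than in the 1462. A region beside Rag2, chr2:101623719-101624054, was higher in AML, with 0.611 in AML, 0.284 in KO, 0.310 in NHD13 and 0.759 in WT. A region in Mpo, the myeloperoxidase gene, at chr11:87795675-87796556, was lower in AML, with 0.0847 in AML, 0.459 in KO, 0.394 in NHD13 and 0.663 in WT.

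**Figure D2:**
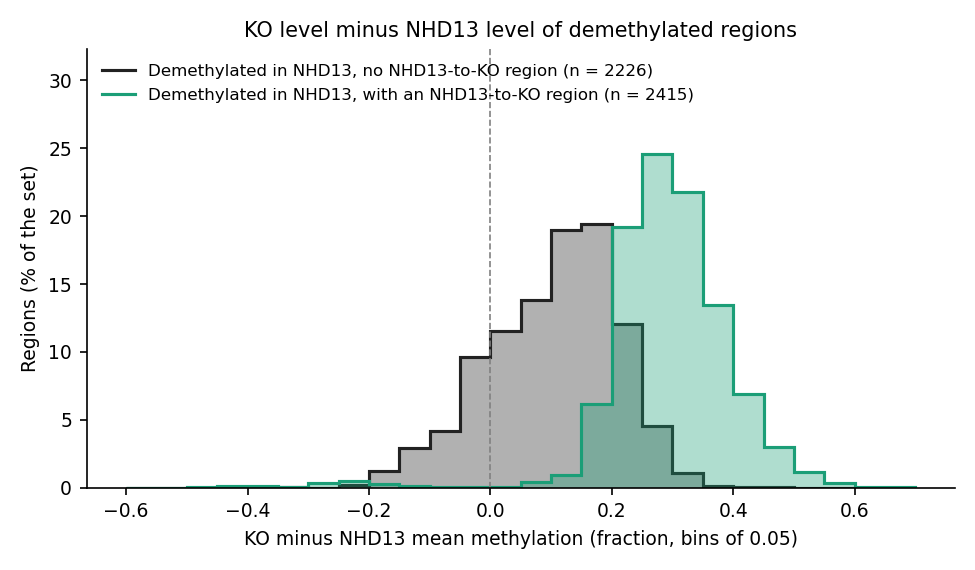
Distribution of KO minus NHD13 mean methylation (fraction, horizontal axis, bins of 0.05) as the percent of regions in each set (vertical axis), for unmatched regions (n = 2226) and matched regions (n = 2415). The unmatched regions centre on 0.118 and the matched regions on 0.294.

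KO-to-AML regions were found over fewer unmatched than matched regions. At an overlap of 1 base, 4319 unmatched regions (13.1%, Wilson 95% interval 12.8 to 13.5) touched one, against 38.4% of matched regions and 26.6% of those that gained methylation in NHD13. Among unmatched regions, 2860 (8.69%) were lower in AML and 1459 (4.43%) were higher. In matched regions the shares were 36.3% lower and 2.11% higher. Such intervals cover counting error only, and longer regions overlap others more often. The KO library is also part of the rule. Of the matched regions, 10061 (95.96%) met an NHD13-to-KO region with KO higher, so their share lower in AML is in part set by that choice.

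The densest cluster of unmatched regions surrounded Setd2 itself. Within 10 Mb of Setd2 (chr9:110532500-110618633) there were 1222 unmatched regions, 60.8 per Mb, against 13.0 per Mb elsewhere. Matched regions stood at 6.97 per Mb there against 4.24 elsewhere, and regions that gained in NHD13 at 4.83 against 3.35. No unmatched region lay in Setd2. In steps of 1 Mb, the counts peaked at 202 between 5 and 4 Mb before the gene and at 200 in the step before that, with 107 in the step from 0 to 1 Mb after it. Of 502 bins of 5 Mb over the genome, the bin from 105 to 110 Mb of chromosome 9 was the highest, with 527 against a median of 60. The median methylation of the 1222 was 0.557 in NHD13 and 0.896 in WT. For 44 of them a KO level could be read, with a median of 0.541 and a median KO minus NHD13 of 0.0644. NHD13 and KO mice carry floxed Setd2 alleles and the transgene, and WT mice carry neither, so the floxed chromosome segment and the transgene cannot be told apart here.

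**Figure D3:**
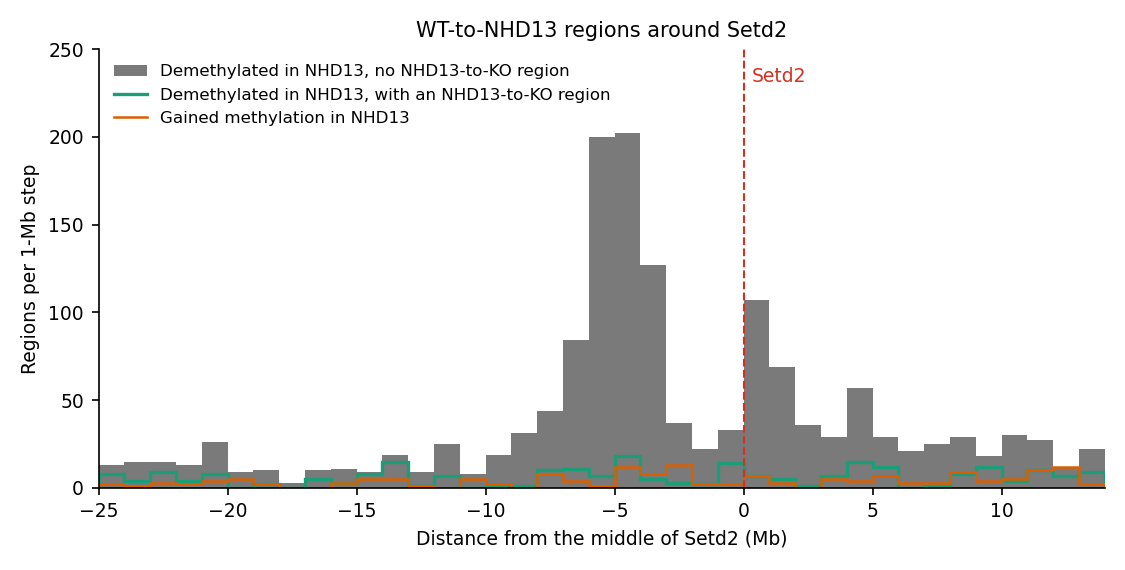
Number of WT-to-NHD13 regions per step of 1 Mb (vertical axis) against the distance from the middle of Setd2 (Mb, horizontal axis, dashed line at the gene). Unmatched regions reach 202 in 1 step, while matched regions and regions that gained methylation in NHD13 stay low over the same span.

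Cpne4, a calcium-binding copine gene of that segment, held 101 unmatched regions in its body, the most of any gene. In the same segment, Nek11 held 52, Col6a4 38, Dock3 37 and Col6a6 35, and the RNA of Cpne4 had no count in 8 of the 9 marrow RNA libraries. A 2nd dense stretch lay on chromosome 8 between 30 and 45 Mb, with 721 unmatched, 215 matched and 39 gained regions. Sgcz there held 62, Dlc1 39 and Nrg1 32. Outside both stretches, 30960 unmatched regions remained. For 2159 of them (6.97%) a KO level could be read, with the same median KO minus NHD13 of 0.118. Elsewhere, the rearranging antigen receptor loci Igh, Tcra and Igk held 43, 31 and 26, and Tenm3, also on chromosome 8, held 30. Among genes that passed the filter on RNA counts, Foxp1 held 24, Cdk6 22 and Pde4d 21, which encode a forkhead factor, a cell cycle kinase and a cAMP phosphodiesterase.

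Unmatched regions lay mostly away from gene starts. A start was within 1 kb of 4.23% of them (1346 of 31856 with a chromosome in the start table), against 5.23% of matched regions and 17.7% of those that gained, and 187 held a start. Their median distance to a start was 27994.5 bases, against 20898 for matched and 14866 for gained regions. In gene bodies lay 57.1% of unmatched, 59.6% of matched and 67.4% of gained regions. The unmatched regions near a start were lower in both libraries, with medians of 0.387 in NHD13 and 0.695 in WT. WT methylation was under 0.5 at 20.4% of them, against 5.49% of those further away. Another unmatched region lay within 5 kb of 26.5%, and a matched one within 5 kb of 9.44%.

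The share of unmatched regions in H3K36me3 peaks of leukemia cells was below the share of the bases that the peaks cover. The KO-AML list of 16902 peaks covered 28.4 Mb, and the NHD13-AML list of 30953 peaks 193 Mb. On chromosomes 1 to 19, up to the last region of each, that is 1.15% and 7.73% of the bases. Of the unmatched regions, 0.778% (Wilson 95% interval 0.689 to 0.879) touched a KO-AML peak and 6.23% (5.97 to 6.49) an NHD13-AML peak. The shares were 1.52% and 8.28% for matched regions and 1.27% and 9.08% for gained ones. Matched and gained regions were longer, with median lengths of 302 and 271 bases, against 211 in unmatched regions. Inside NHD13-AML peaks, the median methylation was 0.563 in NHD13 and 0.849 in WT, and outside them 0.540 in NHD13 and 0.844 in WT. The peaks come from spleen cells at the leukemia stage and the regions from marrow progenitors, with 1 ChIP library each.

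The RNA totals ran from 18673704 to 28127686 counts per library, and 16233 genes passed the filter on low counts. One WT library, replicate 1, stood apart from the other 2 WT libraries. By the chi-square of gene counts per degree of freedom, it was 27.1 and 26.1 from them, and they were 3.76 apart. NHD13 replicates 2 and 3 were 22.3 apart, with 11.8 and 7.65 for the other NHD13 pairs. All groups held RNA of progenitor, neutrophil and erythroid markers, with none of these at 0 in a whole group. The 12 stem and progenitor markers summed to 735 to 751 CPM (counts scaled to a common library size) in AML, 662 to 705 in KO, 228 to 262 in NHD13 and 1184 to 1249 in WT. The 17 neutrophil markers summed to 26880 to 27290 in AML, 57480 to 61030 in KO, 151700 to 174900 in NHD13 and 29580 to 32460 in WT. Xist, the RNA of the inactive X, had 0 to 0.052 CPM in AML, 0.0356 to 0.0979 in KO, 53.9 to 109 in NHD13 and 125 to 229 in WT, and Y-linked Eif2s3y showed the opposite, so sex and Setd2 deletion cannot be told apart in RNA. Chromosome X held 12.9% of the NHD13-to-KO regions (4832 of 37430), against 3.03% of the WT-to-NHD13 regions (1780 of 58684). Whether the bisulfite libraries differ in sex in the same way, and its part in the split into matched and unmatched regions, was not tested. For Setd2 the whole-gene count does not check a deletion of part of the gene, and it had 33.1, 29.2 and 34.9 CPM in KO libraries and 34.4, 34.6 and 31.5 in NHD13 libraries. In bulk libraries, fewer cells of a type and less RNA per cell cannot be told apart, and the part of the marker shifts in the results that follow was not tested.

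Of the 7 unmatched regions that spanned 4000 bases or more, 2 lay in Pbx3, whose homeodomain protein binds DNA together with Hox proteins. At chr2:34364092-34370726, the methylation was 0.247 in NHD13 and 0.894 in WT over 6635 bases. At chr2:34354937-34359639, it was 0.892 in AML, 0.517 in KO, 0.506 in NHD13 and 0.898 in WT. Pbx3 held 7 unmatched regions in all and 1 matched one. Its RNA had 60.3, 53.9 and 57.1 CPM in KO libraries, 28.9, 29.5 and 26.1 in NHD13 libraries and 3.36, 4.07 and 3.85 in WT libraries. The 3 groups did not overlap. Pbx3 was 7.49-fold higher in NHD13 than in WT (log2 2.90 ± 0.10 SE, adjusted p = 1.1e-14 by edgeR's quasi-likelihood test with Benjamini-Hochberg adjustment) and 2.03-fold higher in KO than in NHD13 (log2 1.02 ± 0.08 SE, edgeR adjusted p = 3.74e-09). The KO-to-NHD13 and NHD13-to-WT comparisons share the NHD13 libraries, and p-values measure the spread between libraries, which may be technical.

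The region with the largest summed statistic was also long. At chr4:154638225-154643409, 865 bases before Prdm16, a transcription factor gene of blood stem cells, 5185 bases with 224 CpG sites had 0.210 in NHD13 and 0.701 in WT. Prdm16 had 13.4, 15.7 and 13.9 CPM in KO libraries, 9.23, 8.49 and 9.15 in NHD13 libraries and 4.33, 6.36 and 5.39 in WT libraries. It was 1.67-fold higher in NHD13 than in WT (log2 0.74 ± 0.14 SE, edgeR adjusted p = 0.000179), with no overlap between the groups. A region of 5547 bases at chr2:103935500-103941046 overlapped Gm39896 and lay 16857 bases from Lmo2, the gene of a LIM protein of blood stem cells, which was picked after its values were seen. Its methylation was 0.309 in NHD13 and 0.842 in WT. The KO-to-AML region over it had 0.836 in AML and 0.275 in KO. Lmo2 had 293, 271 and 293 CPM in KO libraries, 216, 214 and 236 in NHD13 libraries and 434, 439 and 450 in WT libraries. It fell by 0.99 ± 0.06 (SE) on the log2 scale in NHD13 against WT (edgeR adjusted p = 4.35e-11), so a long loss of methylation stood beside a higher RNA level at Pbx3 and Prdm16 and a lower one at Lmo2. The other long regions lay in Boll at chr1:55241204-55251020, in Dleu2 at chr14:61637602-61646992 and in Ascc3 at chr10:50634185-50642721, with 0.259, 0.265 and 0.290 in NHD13, against 0.910, 0.832 and 0.951 in WT. Boll, at a mean of 0.528 CPM in NHD13 and 0.482 in WT, and Dleu2 did not pass the test in NHD13 against WT. Their log2 differences were 0.13 ± 0.46 and 0.12 ± 0.13 (SE). Ascc3 was 1.31-fold higher in NHD13 than in WT (log2 0.39 ± 0.07 SE, edgeR adjusted p = 8.01e-05).

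At the Hoxc cluster, a set of homeobox genes ordered along chromosome 15, unmatched regions accompanied genes with little or no RNA in WT. At chr15:103009905-103011167, in Hoxc6, 106 CpG sites had 0.0741 in NHD13 and 0.302 in WT. In Hoxc4, chr15:103018586-103019928 had 0.254 in NHD13 and 0.726 in WT. Hoxc5, which lies between them, had 35.4, 37.2 and 36.5 CPM in KO libraries, 11.3, 11.5 and 11.4 in NHD13 libraries and 0 in each WT library. Set against a floor of 3 counts over the WT group, Hoxc5 was at least 279-fold higher in NHD13, and Hoxc4, also at 0 in WT, at least 67.5-fold. At Hoxa7, a region upstream of the start, chr6:52218933-52219470, had 0.1002 in NHD13 and 0.398 in WT. Hoxa7 had 117, 131 and 127 CPM in KO libraries, 72.7, 74.8 and 85.3 in NHD13 libraries and 31.3, 27.6 and 29.3 in WT libraries. It was 2.64-fold higher in NHD13 than in WT (log2 1.40 ± 0.08 SE, edgeR adjusted p = 1.8e-11).

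Genes with an unmatched region at their start were higher in NHD13 than in WT in a larger share than genes at large. The 1346 regions near a start led to 1322 symbols, of which 972 matched the count table and 672 passed the filter. In NHD13 against WT, 259 of the 672 were higher (38.5%) and 164 lower (24.4%), while 25.3% of all genes tested were higher and 28.7% lower. Of the 10347 genes tested that have a start in the table, 29.1% were higher and 29.7% lower. The median log2 fold change of the 672 was 0.10, against -0.01 for genes with a start and -0.04 for all genes. Of 264 genes at matched regions, 139 were higher (52.7%) and 50 lower (18.9%), and of 697 at regions that gained methylation, 129 were higher and 323 lower. With a loss of at least 0.3 at the start, 97 of 217 genes were higher (44.7%) and 39 lower (17.97%), and with the start inside the region, 34 of 75 were higher and 13 lower. Starts of 61 symbols were shared with matched regions and 45 with gained ones. Without the 10 Mb around Setd2, 247 of 645 were higher and 159 lower, and without WT replicate 1, 268 were higher and 161 lower.

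In KO against NHD13, the same genes were near the background in the share that was higher and above it in the share that was lower. Of the 672, 154 were higher (22.9%, against 20.6% of all genes) and 184 lower (27.4%, against 20.3%), with a median log2 fold change of -0.05. Genes with a start in the table had 21.8% higher and 23.1% lower. Under upper-quartile scaling the split turned to 178 higher and 163 lower. The split of all genes moved with it, from 3340 higher and 3295 lower to 3966 higher and 2778 lower. At matched regions, 45 of 264 were higher (17.0%) and 136 lower (51.5%), with a median of -0.39. In AML against KO, 314 of the 672 were higher (46.7%, against 42.8%) and 270 lower (40.2%, against 39.5%). Under upper-quartile scaling, which moved the median of all genes by -0.18, 285 were higher and 293 lower. All genes then had 6332 higher and 7056 lower.

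**Figure D4:**
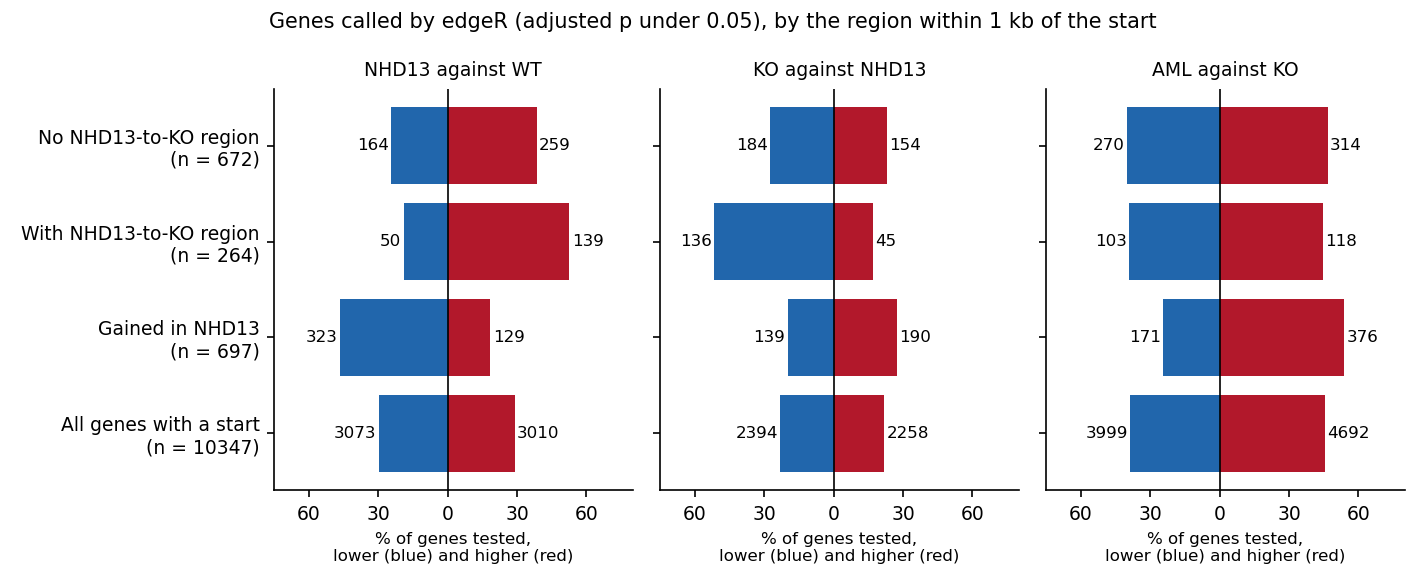
Percent of genes tested (horizontal axis) that edgeR called lower (blue, to the left) or higher (red, to the right) at an adjusted p under 0.05, with the gene counts beside the bars, for genes whose start lies within 1 kb of an unmatched, a matched or a gained region and for all genes with a start. In NHD13 against WT the unmatched bar has 259 higher and 164 lower genes, between the matched and the background bars.

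Of the 10 largest rises at unmatched starts in NHD13, 3 are on the list of neutrophil genes: S100a9, Camp and Chil3. The 10 were picked by size among called genes whose NHD13 and WT libraries did not overlap, so that separation is not a result. S100a9, a subunit of the calcium-binding inflammatory protein calprotectin, had 1350, 1220 and 1198 CPM in KO libraries, 15740, 21230 and 15060 in NHD13 libraries and 158, 249 and 237 in WT libraries. The groups were far apart, with NHD13 on top. S100a9 was 81.0-fold higher in NHD13 than in WT (log2 6.34 ± 0.20 SE, edgeR adjusted p = 1.31e-10) and fell by 3.79 ± 0.18 (SE) in KO against NHD13 (edgeR adjusted p = 8.65e-09). Camp, which encodes an antimicrobial peptide of neutrophil granules, had 363, 342 and 350 CPM in KO libraries, 9517, 10740 and 9302 in NHD13 libraries and 49.7, 61.6 and 63.5 in WT libraries. A region of 59 bases in Camp, chr9:109849147-109849205, had 0.665 in NHD13 and 0.874 in WT, and Camp lies within 10 Mb of Setd2. Within 5 kb, Camp had 2 unmatched and 3 matched regions, S100a9 2 and 1, and Chil3 1 and 0. Camp was 169-fold higher in NHD13 than in WT (log2 7.40 ± 0.11 SE, edgeR adjusted p = 1.2e-19). Chil3, a chitinase-like protein gene of myeloid cells, had 124, 127 and 106 CPM in KO libraries, 3958, 4707 and 3422 in NHD13 libraries and 48.5, 49.5 and 47.3 in WT libraries. Chil3 was 83.2-fold higher in NHD13 than in WT (log2 6.38 ± 0.12 SE, edgeR adjusted p = 2.32e-17). Its region, 9 bases before the start at chr3:106167573-106167690, had 0.483 in NHD13 and 0.824 in WT. Chil1, another chitinase-like gene, and Lrg1, which encodes a glycoprotein of neutrophil granules, were 54.4-fold and 46.5-fold higher in NHD13 than in WT. Pilrb1, Ly6g5b and Mcemp1, which encode cell surface proteins, were 22.6-fold, 19.4-fold and 13.0-fold higher.

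Mst1r and Ccr1 were high in KO cells as well. Mst1r had 29.5, 36.8 and 25.5 CPM in KO libraries, 36.8, 28.9 and 35.7 in NHD13 libraries and 0.425, 0.332 and 0.342 in WT libraries. KO and NHD13 overlapped, with a log2 difference of -0.14 ± 0.13 (SE, edgeR adjusted p = 0.394), and both were far above WT. Mst1r was 90.6-fold higher in NHD13 than in WT (log2 6.501 ± 0.21 SE, edgeR adjusted p = 9.5e-15), and its start lies within 10 Mb of Setd2. In AML it had 2.41, 3.02 and 2.22 CPM, and fell by 3.59 ± 0.16 (SE) on the log2 scale against KO (edgeR adjusted p = 1.18e-13). Ccr1, a receptor for inflammatory chemokines, had 88.0, 82.8 and 73.9 CPM in KO libraries, 60.9, 65.7 and 52.4 in NHD13 libraries and 1.43, 2.70 and 1.93 in WT libraries. It was 29.6-fold higher in NHD13 than in WT (log2 4.89 ± 0.15 SE, edgeR adjusted p = 3.39e-14) and 1.37-fold higher in KO than in NHD13 (log2 0.45 ± 0.11 SE, edgeR adjusted p = 0.00257). Its 2 regions, chr9:123964609-123965962 and chr9:123967982-123968268, had 0.272 and 0.487 in NHD13, against 0.706 and 0.935 in WT.

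Loss of methylation at a start was also found at genes that fell in NHD13. Tsc22d1 had 352, 347 and 354 CPM in KO libraries, 36.6, 43.8 and 37.4 in NHD13 libraries and 372, 298 and 316 in WT libraries. KO and WT overlapped, and NHD13 was far below both. Tsc22d1 fell by 3.06 ± 0.08 (SE) on the log2 scale in NHD13 against WT (edgeR adjusted p = 5.82e-16) and was 8.93-fold higher in KO than in NHD13 (edgeR adjusted p = 1.02e-15). Gcnt2, which encodes a glycosyltransferase, had 13.1, 15.6 and 14.1 CPM in KO libraries, 3.24, 2.57 and 1.58 in NHD13 libraries and 55.9, 56.4 and 55.1 in WT libraries. It fell by 4.51 ± 0.15 (SE) in NHD13 against WT (edgeR adjusted p = 7.36e-15), and KO lay between the other groups. Its region chr13:40860259-40860770 had 0.0660 in NHD13 and 0.327 in WT. Mfge8, the gene of a secreted protein that binds dying cells, had 30.04, 33.2 and 33.7 CPM in KO libraries, 4.10, 2.62 and 3.21 in NHD13 libraries and 73.5, 59.1 and 59.5 in WT libraries. It fell by 4.27 ± 0.13 (SE) in NHD13 against WT (edgeR adjusted p = 4.65e-15), and its region chr7:79149667-79149885 had 0.286 in NHD13 and 0.558 in WT.

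The other 7 of the 10 largest falls included platelet genes. Itga2b, the platelet integrin CD41, had 31.7, 35.7 and 28.9 CPM in KO libraries, 6.48, 4.72 and 6.72 in NHD13 libraries and 80.04, 56.6 and 60.8 in WT libraries, and fell by 3.46 ± 0.15 (SE) in NHD13 against WT (edgeR adjusted p = 1.07e-11). Gp1bb had 10.3, 8.49 and 12.1 CPM in KO libraries, 1.24, 1.36 and 1.43 in NHD13 libraries and 14.04, 11.5 and 13.0 in WT libraries, and fell by 3.25 ± 0.18 (SE) against WT (edgeR adjusted p = 2.98e-11). Among the marrow groups both genes were lowest in NHD13, without overlap with KO. No overlap with WT was a condition of their pick. The remaining 5 were Ablim1, an actin-binding protein gene, Kcna3, a potassium channel gene, Muc13, a membrane mucin gene, P2ry14, a nucleotide sugar receptor gene, and Emid1, with log2 falls of 2.67 to 3.07 in NHD13 against WT. These 10 were picked for the size of their fall among called genes whose NHD13 and WT libraries did not overlap.

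**Figure D5:**
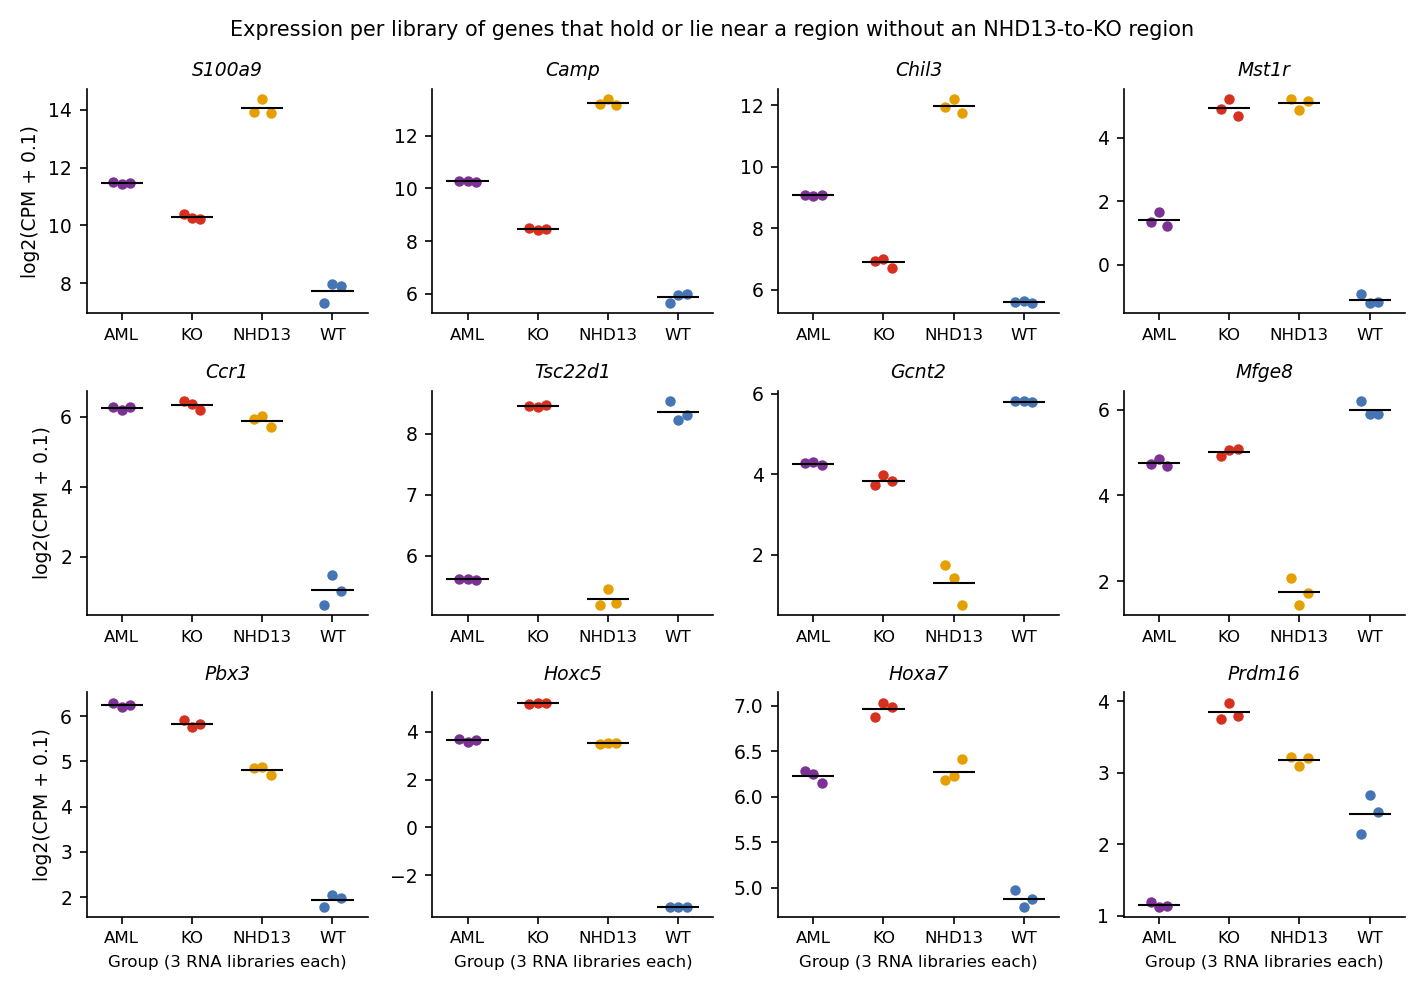
Expression (log2 of CPM plus 0.1, vertical axis) in each RNA library of AML, KO, NHD13 and WT for 12 genes that hold or lie near an unmatched region, with points for libraries and lines for means. S100a9, Camp and Chil3 are highest in NHD13, Mst1r and Ccr1 are high in KO and NHD13 alike, Tsc22d1, Gcnt2 and Mfge8 are lowest in NHD13 among the marrow groups, and Pbx3, Hoxc5, Hoxa7 and Prdm16 are highest in KO among the marrow groups.

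Neutrophil genes with an unmatched region in the body or within 5 kb were higher in NHD13 than in WT, and stem and progenitor genes with one were lower, which also held for each whole list. Such a region was present for 43.8% of tested genes with coordinates (6290 of 14359), which were longer than the rest, with a median of 34077 against 13015 bases. Of 17 neutrophil genes tested, 13 had one, and all 13 were higher in NHD13 than in WT and all 13 lower in KO than in NHD13, as were the 17 of the whole list. A matched region lay as near to 14 of the 17, so such regions are not particular to the unmatched set. The granule genes Mpo, Prtn3 and Ctsg were 2.28-fold, 3.87-fold and 2.46-fold higher in NHD13 than in WT. Ctsg had 4568, 4559 and 4515 CPM in KO libraries, 6589, 7468 and 6722 in NHD13 libraries and 2299, 3109 and 3047 in WT libraries, with 7 unmatched regions and no overlap between groups. Ltf, the lactoferrin gene, was 51.0-fold higher in NHD13 than in WT and lies within 10 Mb of Setd2. Of 12 stem and progenitor genes, 5 had an unmatched region (among them Mecom, Ly6a, Cd48 and Angpt1), and all 5 were lower in NHD13 than in WT and higher in KO than in NHD13, as were all 12. A matched region lay as near to 6 of the 12. Angpt1, which encodes a vascular and stem cell ligand, had 48.1, 47.7 and 48.1 CPM in KO libraries, 5.18, 5.51 and 3.81 in NHD13 libraries and 80.4, 92.4 and 72.8 in WT libraries. Its region chr15:42432083-42432307, in the gene body, had 0.121 in NHD13 and 0.445 in WT, and its RNA was lowest in NHD13, without overlap with the other groups.

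In the other lists too, counts of genes with an unmatched region stand beside those of the whole list. A matched region was within 5 kb of 2 of 20 erythroid, 5 of 15 heme and iron and 4 of 9 B cell genes. The numbers were 4 of 10 for monocyte and dendritic, 1 of 8 for megakaryocyte and 5 of 9 for mast cell and basophil genes. They were 4 of 7 for T and NK cell and 1 of 11 for Hox program genes. Of 20 erythroid genes, 7 had an unmatched region, and all 7 were higher in NHD13 than in WT, as were 16 of the whole list, with 2 lower. In KO against NHD13, none of the 7 was higher and 2 were lower, with 2 higher and 4 lower in the whole list. Ank1, the ankyrin of the red cell membrane skeleton, had 8.59, 7.72 and 7.69 CPM in KO libraries, 8.75, 9.02 and 10.2 in NHD13 libraries and 2.98, 2.99 and 3.68 in WT libraries, and held 5 unmatched regions. Of 15 heme and iron genes, 8 had one, with 7 higher and none lower in NHD13 against WT, beside 13 higher and none lower in the whole list. Alas1, the general form of the first enzyme of heme synthesis, had 552, 601 and 573 CPM in KO libraries, 1202, 1156 and 1303 in NHD13 libraries and 341, 296 and 307 in WT libraries, and lies within 10 Mb of Setd2. Within 5 kb, Alas1 had 3 unmatched and 6 matched regions. In the B cell list, 8 of 9 genes tested had one, with 6 lower in NHD13 against WT, and 1 higher and 7 lower in KO against NHD13. The whole list had 6 lower in NHD13 against WT, and 1 higher and 8 lower in KO against NHD13. Of 10 monocyte and dendritic genes, 4 had one and all 4 were lower in NHD13 than in WT, as were all 10. Irf8, a transcription factor gene of these lineages, had 183, 192 and 203 CPM in KO libraries, 46.8, 39.4 and 47.2 in NHD13 libraries and 250, 206 and 220 in WT libraries. Its region chr8:120755169-120755501 had 0.923 in AML, 0.641 in KO, 0.714 in NHD13 and 0.923 in WT. Within 5 kb, Irf8 had 1 unmatched and 2 matched regions. In the smaller lists, 1 of 4 megakaryocyte, 1 of 3 mast cell and basophil and 1 of 3 T and NK cell genes with a region were higher in NHD13 than in WT, and 3, 2 and 1 were lower. The whole lists had 1 of 8, 3 of 9 and 2 of 7 higher, and 7, 6 and 4 lower. In KO against NHD13, mast cell and basophil genes with a region had 2 higher and 1 lower, with a median log2 fold change of 2.32, against 4 higher, 4 lower and a median of -0.12 in the whole list. Of 7 genes of the Hox program with a region, 6 were higher and 1 lower in NHD13 than in WT, with a median log2 fold change of 2.90, beside 8 higher, 2 lower and a median of 0.89 among the 11 genes of the whole list. In KO against NHD13, 6 of the 7 and 9 of the 11 were higher.

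Among the genes that write and erase DNA methylation, 3 fell and 1 rose in NHD13 against WT. Of all genes tested, 28.7% were lower and 25.3% higher, so counts over so few genes are a description. Dnmt3b, a writer of new methylation, had 45.4, 50.2 and 46.4 CPM in KO libraries, 16.1, 15.2 and 19.6 in NHD13 libraries and 39.3, 37.7 and 35.97 in WT libraries. It fell by 1.15 ± 0.09 (SE) on the log2 scale in NHD13 against WT (edgeR adjusted p = 1.52e-09), and was 2.79-fold higher in KO than in NHD13 (edgeR adjusted p = 6.79e-11). Dnmt3a fell by 0.44 ± 0.12 (SE) in NHD13 against WT (edgeR adjusted p = 0.00603). Tet1, an eraser, had 11.01, 9.44 and 8.97 CPM in KO libraries, 3.94, 4.88 and 3.41 in NHD13 libraries and 20.1, 20.2 and 21.9 in WT libraries, and fell by 2.35 ± 0.13 (SE) in NHD13 against WT (edgeR adjusted p = 2.09e-11). Dnmt1, which copies methylation, had 132, 148 and 113 CPM in KO libraries, 155, 148 and 161 in NHD13 libraries and 149, 111 and 113 in WT libraries, so that NHD13 and WT overlapped. It was higher in NHD13 than in WT by a log2 of 0.31 ± 0.11 (SE, edgeR adjusted p = 0.0258), a call lost without WT replicate 2, WT replicate 3 or NHD13 replicate 3, at 0.24, 0.25 and 0.30. Tet2, Tet3 and Uhrf1 did not pass the test in NHD13 against WT, with log2 differences of 0.07 ± 0.08, -0.18 ± 0.09 and 0.53 ± 0.25 (SE), of which that of Tet3 passed under upper-quartile factors and that of Uhrf1 without WT replicate 1, at -0.26 and 0.90. Their part in the loss of methylation was not tested.

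At some of the unmatched regions with the largest summed statistic, RNA changed little. The region in Bmi1, a Polycomb gene of stem cell self-renewal, at chr2:18677431-18677906 held 146 CpG sites with 0.198 in NHD13 and 0.524 in WT. Bmi1 had 29.0, 27.9 and 28.6 CPM in KO libraries, 32.2, 26.8 and 27.04 in NHD13 libraries and 29.4, 32.7 and 31.8 in WT libraries, and NHD13 and WT overlapped. C1galt1 had 19.1, 18.8 and 21.2 CPM in KO libraries, 22.3, 24.96 and 22 in NHD13 libraries and 15.4, 18.2 and 17.0 in WT libraries, a 1.37-fold rise in NHD13 against WT (edgeR adjusted p = 0.000452). Unmatched regions with at least 5 CpG sites per 100 bases, with both strands counted once, numbered 1112. Their medians were 0.523 in NHD13 and 0.779 in WT, and 10.6% lay within 1 kb of a start.

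Windows at unmatched regions held some motifs more or less often than windows at large, in part as windows at matched regions did. Over 375 windows of 300 bases touched by an unmatched region and 31365 windows in all, on both strands, the RUNX motif TGTGGT was in 29.3% of the first and 16.7% of all. The GATA motif AGATAA was in 19.7% and 11.2%, the C/EBP motif TTGCNNAA in 13.6% and 10.9%, and the PU.1 motif GAGGAAGT in 4.80% and 3.25%. The AP-1 motif TGANTCA was in 9.87% and 7.85%, the HOX-PBX motif TGATTNAT in 4.53% and 3.24%, the MEIS motif TGACAG in 22.1% and 19.04% and the E-box CAGCTG in 17.1% and 16.3%. Motifs with CpG or many C were rarer at unmatched regions, with the ETS motif CCGGAAGT in 2.13% and 3.95% and the KLF motif CCNCNCCC in 38.7% and 49.8%. In the 180 windows touched by a matched region, the shares were 24.4% for RUNX, 10.6% for GATA, 25% for C/EBP, 1.67% for PU.1, 17.8% for AP-1, 5.56% for HOX-PBX, 21.1% for MEIS, 22.8% for the E-box, 1.11% for ETS and 43.3% for KLF. Thus RUNX, MEIS, HOX-PBX, ETS, KLF, C/EBP, AP-1 and E-box letters departed from all windows in the same direction in both sets. Of these, C/EBP, AP-1 and E-box letters were more frequent at matched than at unmatched regions. GATA and PU.1 letters were above all windows at unmatched regions and below them at matched ones. The PU.1 letters were in only 18 of 375 unmatched and 3 of 180 matched windows, and the ETS letters in 8 and 2. The windows at unmatched regions held a median of 5 CpG pairs, against 7 in all windows, and base composition alone changes how often such letters occur. In the S100a9 window, the C/EBP, GATA, RUNX, MEIS and KLF letters were all found, and in the Tsc22d1 window only those of KLF among the 10 motifs. A match is a description of letters and not a bound site.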

How the data were processed

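Sample titles gave the groups and replicate numbers. The regions, gene lists and tests were chosen with earlier results of these data known. Per the file headers, the tables of differentially methylated regions that the authors deposited give mean methylation as a fraction for both libraries, with the difference, the length, the CpG sites and a score that sums the evidence of all sites. Which library is on which side was checked with regions that are identical in 2 tables. The sources used here do not name the region caller. The coverage is unknown, so no error could be set on a level. Raw gene counts were deposited by the authors for 53946 genes, and the deposited FPKM table served to pair identifiers with symbols. The deposited peak lists give each peak a fold enrichment, a score and the −log10 p and q. Per the submitters' processing notes, the tools were Trimmomatic, Bismark 0.19.0, HISAT2 2.0.5, MACS2 2.1.1.20160309, HTSeq 0.9.1, deepTools, SAMtools 1.7, DESeq2 1.22.2 and Bowtie2 2.2.9, on mm10, the same assembly as GRCm38.

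Regions were joined in Python 3.11.15 with pandas 2.3.3 and numpy 2.4.6, with an overlap of 1 base unless stated. The KO level of a region was read from KO-to-AML regions with a reciprocal overlap of at least 50%. Shares carry Wilson 95% intervals. Gene starts, windows of 250 bases before to 50 after them and gene spans came from RefSeq tables of GRCm38.p6, and a start counted as near within 1000 bases. Chromosome 18 was not used in shares by start. Counts were tested in edgeR 4.0.16 (R 4.3.3) with TMM factors, filterByExpr and 1 quasi-likelihood model of 4 group means over all 12 libraries (8 residual degrees of freedom), Benjamini-Hochberg adjustment over 16233 genes and a threshold of 0.05, after a check on simulated data. SEs are the log2 fold change over the square root of F, as a size. No source used here gives the strand setting of the counts, so overlapping genes are uncertain. The genes named include the 10 largest rises and 10 largest falls in NHD13 against WT among genes with an unmatched start. These had an edgeR adjusted p under 0.05, no overlap between NHD13 and WT libraries and 10 CPM or more on average in the higher group. Also named are the genes at the 10 regions with the largest score, up to 6 genes of each list and factors of the motifs. DNA methylation genes and the 8 genes with the most regions complete the set. Lmo2, Boll, Dleu2, Ascc3 and the genes after the 8th by number of regions were picked after their values were seen. Some genes of the lists are not reported here. The alternatives were DESeq2 1.42.0, upper-quartile factors, other filters, other windows and overlaps, a replicate block and leaving out each library, and, added after seeing the data, leaving out the regions within 10 Mb of Setd2.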

Additional observations from a re-analysis of the deposited data

How the results depend on the processing

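The number of unmatched regions fell to 12403 with a loss of at least 0.3. With more than 50% of the region inside peaks, 0.653% lay in KO-AML and 5.73% in NHD13-AML peaks, and with peaks at a q of 0.0001 or smaller 0.650% and 5.91%. KO-to-AML regions overlapped 6.77% at a reciprocal 50%, and 14.4% of the regions with a loss of at least 0.3. The KO minus NHD13 median kept its size at 0.127 with 80% and 0.115 with 1 base. For genes near a start, higher and lower in turn, the counts with the start inside the region were 45 and 20 in AML against KO, 16 and 20 in KO against NHD13, and 34 and 13 in NHD13 against WT. Within 5000 bases they were 1168 and 915, 526 and 672, and 892 and 640, in the same order. With a loss of at least 0.3 they were 104 and 89, 46 and 63, and 97 and 39. The genes tested in these settings numbered 75, 2458 and 217 in turn, since the settings change how many genes are counted. Of all genes tested, 42.8% and 39.5%, 20.6% and 20.3%, and 25.3% and 28.7% were higher and lower. Leaving out 1 library at a time gave 306 to 315 and 254 to 264, 137 to 150 and 170 to 177, and 239 to 268 and 151 to 163. All genes then had 6850 to 7052 and 6262 to 6331, 2876 to 3170 and 2869 to 3169, and 3839 to 4350 and 4300 to 4781. DESeq2 called 317 and 269, 148 and 183, and 282 and 150, beside 7269 and 6733, 3190 and 3265, and 4530 and 4315 over all genes. Upper-quartile factors gave 222 and 194 in NHD13 against WT, beside 3368 and 5298 over all genes.

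Replicate numbers do not pair the libraries, with correlations of same-numbered deviations from -0.0876 to 0.109, and 2, 0 and 2 of 6 libraries correlated best with their own number in AML against KO, KO against NHD13 and NHD13 against WT. With the replicate block, 311 and 268 genes near a start were called in AML against KO, 154 and 184 in KO against NHD13, and 255 and 160 in NHD13 against WT. Over all genes it called 6871 and 6367, 3232 and 3199, and 4035 and 4533, in the same order. Of 3465 alternative values for 105 named genes, 3348 kept direction and side of the threshold, 82 lost the call, 34 gained one and 1 turned, Runx1 in AML against KO, with a log2 of -0.0114 under upper-quartile factors, and the cause was not tested.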
